A study of Bos taurus with 6 samples.

Results

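Solute carriers are membrane proteins that move ions, sugars, amino acids, nucleosides, metals and vitamins across the plasma membrane and across the membranes of mitochondria, Golgi, endosomes and lysosomes. They are grouped into numbered families (SLC1, SLC2 and so on) by sequence, and many families share a class of substrate. Cartilage has no blood vessels, so its cells, the chondrocytes, take up glucose, amino acids, sulfate, phosphate and metal ions that diffuse through the matrix, and they release lactate and acid. Sulfate uptake and the Golgi carriers of activated sulfate and nucleotide sugars feed the synthesis of sulfated proteoglycans.

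The genes described here are those whose symbol starts with SLC and a digit and whose mean over all 6 libraries was at least 10 normalized counts. Of 357 such genes in the table of 27607 genes, 211 reached that mean, 95 had reads but stayed below it and 51 had no reads. They were chosen by this measured level alone, and no test of the difference between groups was part of the choice. For 8 of them the mean of either group was below 10. These were let in by a higher level in the other group, so the choice was not independent of the difference there. Among the 211 are 4 genes named after a carrier gene that are not carriers themselves (SLC2A4RG, SLC7A6OS, SLC9A3R1 and SLC9A3R2), which leaves 207 carriers. They came from 47 of the 51 families listed.

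The libraries were made from bovine articular chondrocytes of the deep zone, the cartilage layer next to bone. The cells had been infected with a lentivirus that carries bovine CREB5, a transcription factor, under doxycycline control, and selected with G418 (500 µg/ml, 11 days). All cultures were then held for 3 days on low attachment plates in medium with 10% FBS, the growth factors TGFb2 at 20 ng/ml and, also in both groups, TGFa at 100 ng/ml. In the Dox- group (3 libraries) no doxycycline was added, and in the Dox+ group (3 libraries) it was, at 1 µg/ml per the treatment protocol, although the design text states mg/ml for the same number. Cells came from 3 independently collected knees, and each group is numbered 1 to 3. No library analysed here came from cells given doxycycline without the CREB5 construct, so an effect of doxycycline itself and one of induced CREB5 cannot be told apart.

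The libraries held between 20063379 reads (Dox+ 3) and 122366790 reads (Dox+ 2). CREB5 itself had 308 to 510 normalized counts in the Dox- libraries and 12413 to 21964 in the Dox+ libraries, and the groups were far apart in it, as labelled. Of 8 chondrocyte markers, all had a mean of at least 10. Their summed level was 153942 to 301033 in Dox- and 102302 to 119256 in Dox+ libraries, with 2 of the 8 lower in limma (ACAN and COL9A1). COL2A1 had a log2 fold change of -1.48 and did not pass in that fit (limma adjusted p = 0.22). It was called lower when limma compared libraries of the same number (limma adjusted p = 0.0023) and by DESeq2 (adjusted p = 0.017). Endothelial markers summed to 131 to 291 in Dox- and 142 to 221 in Dox+ libraries, with no reads for CDH5 or EMCN in any Dox+ library. Leukocyte and macrophage markers summed to 206 to 464 and 381 to 712. Osteoblast markers summed to 643 to 1860 in Dox- and 266 to 1232 in Dox+, nearly all from SP7, with DMP1 at 0. Synovial fibroblast markers summed to 72573 to 90718 in Dox- and 40567 to 50272 in Dox+ libraries, with none of the 3 called by limma. Smooth muscle and pericyte markers summed to 5585 to 11259 and 7236 to 18412. Of the 3 tested, ACTA2 was called lower (log2 fold change -2.06, limma adjusted p = 0.0031). PDGFRB and DES were not called, with log2 fold changes of -0.69 and 1.69 (limma adjusted p = 0.32 and 0.36). DES had 982 to 6373 normalized counts in Dox- and 5150 to 16005 in Dox+ libraries. RGS5, which was not tested, had no reads in Dox- and 4.65 to 10.2 normalized counts in Dox+ libraries. The part of these markers in the results below was not tested. In bulk RNA, fewer cells of a type and less RNA per cell cannot be told apart.

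Below, values without doxycycline (Dox-) and with it (Dox+) are given in the order of libraries 1, 2 and 3. The question put to the carriers was which of them changed when CREB5 was induced. Most did not pass the test: 5 of the 211 were called higher and 3 lower in Dox+ cells by limma, at an adjusted p under 0.05 over all 13180 genes tested. These shares, 2.37% and 1.42%, stood beside 2.52% higher and 0.357% lower among all genes tested, or 3.79% beside 2.88% in either direction. At an unadjusted p under 0.05, 10.4% of the 211 and 10.6% of all genes passed. The counts by class below stand beside these shares of all genes tested. The higher genes were SLC2A4, SLC4A4, SLC7A2, SLC7A8 and SLC9A9, and the lower ones were SLC29A1, SLC38A6 and SLC40A1. They belong to 7 different families, with only SLC7 holding more than 1. The median log2 fold change was -0.01 over the 211 genes and -0.0036 over all genes tested, with 104 values above 0 and 107 below.

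With the replicate number as a block, which compares libraries of the same number, 12 of the 211 were called higher and 4 lower, or 5.69% and 1.9%, beside 4.86% and 1.65% of all genes tested. In either direction these were 7.58% of the 211 and 6.51% of all genes. The 16 include the 8 named above. The other 8 were SLC6A17, SLC10A4, SLC12A7, SLC16A7, SLC22A15, SLC35F1 and SLC39A8, which were higher, and SLC13A4, which was lower. Of these, SLC10A4 and SLC35F1 reached the mean of 10 only through the Dox+ group, in which they were higher. All genes tested passed the same filter. Among the 211, 18.0% were higher in all 3 pairs and 25.1% in none, beside 19.5% and 19.1% of all genes tested. The groups did not overlap, with Dox+ higher, for 17 of the 211 (8.06%, and 8.88% of all genes tested) and, with Dox+ lower, for 13 (6.16%, and 6.29%). In the authors' deposited table, 15 of the 211 had an adjusted p under 0.05 and a higher value and 5 a lower one (7.11% and 2.37%), beside 5.24% and 2.05% of the genes given an adjusted p there. All 8 called genes were among those 20. Of the other 12, 8 were called here with the block.

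**Figure D1:**
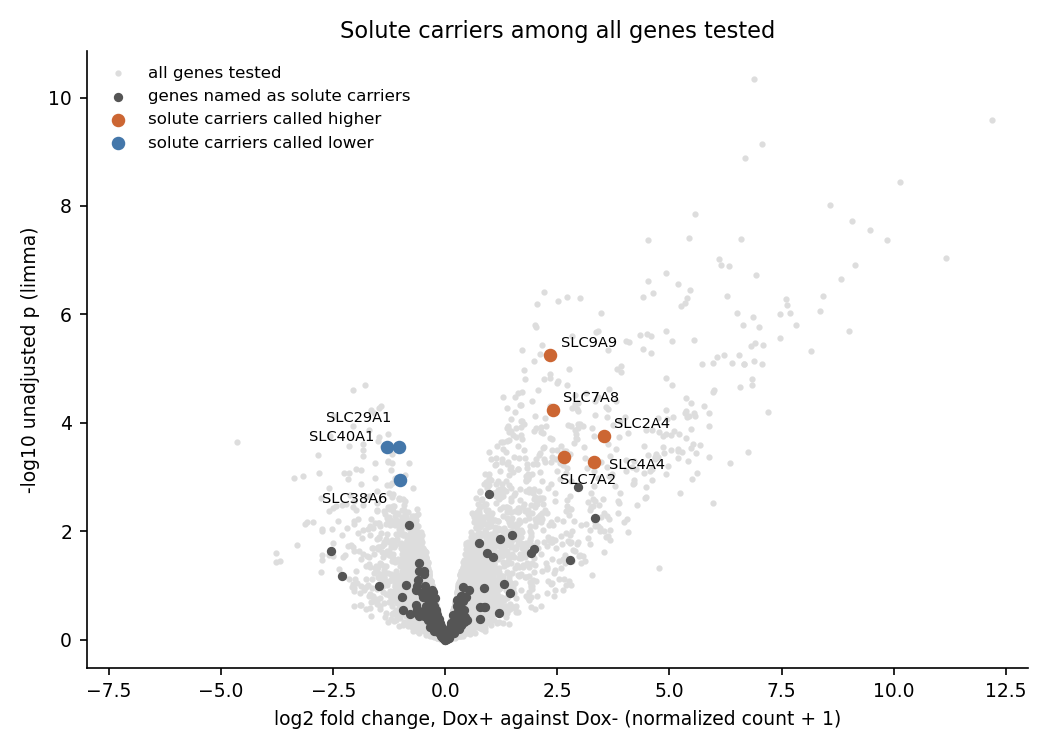
Each point is a gene, with its log2 fold change between Dox+ and Dox- cells on the x axis and -log10 of the unadjusted limma p on the y axis. The 211 genes named as solute carriers (dark) lie within the cloud of all 13180 tested genes (light), with 5 called higher and 3 called lower.

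**Figure D2:**
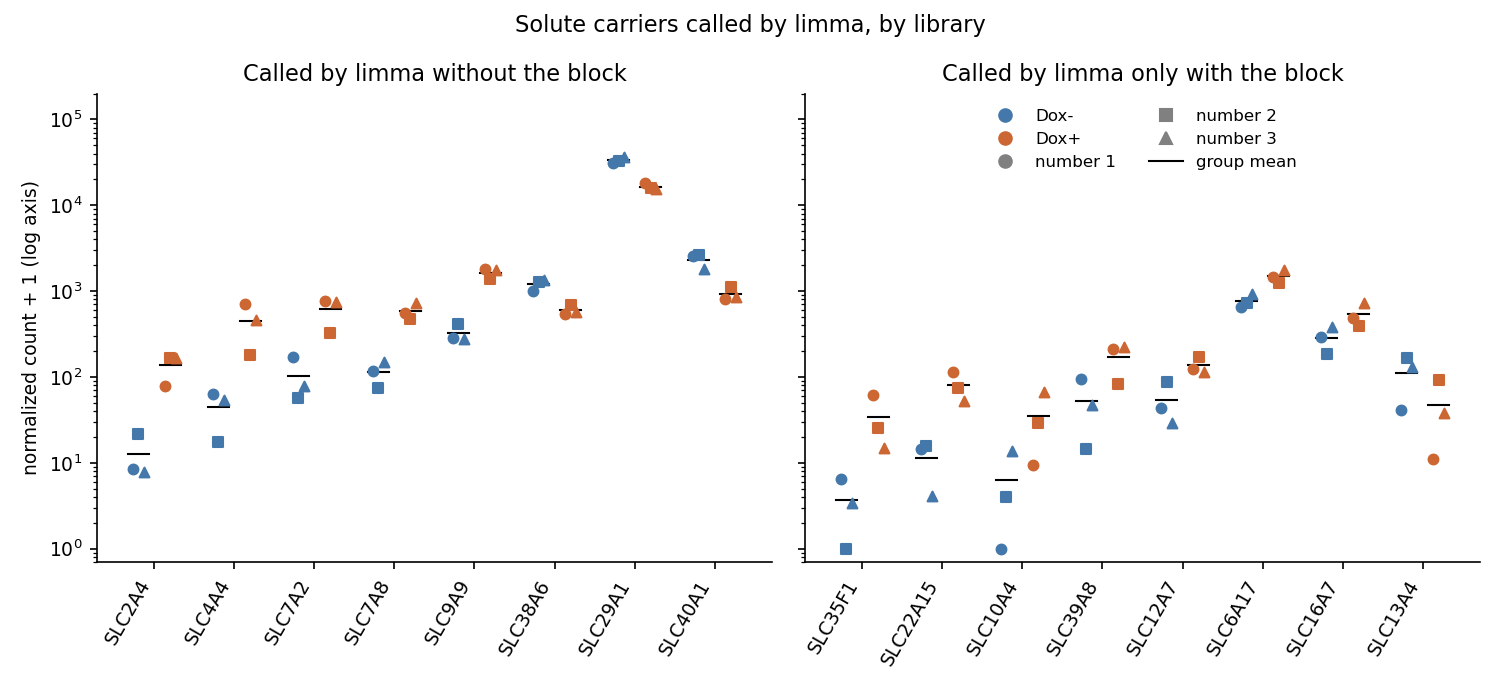
Normalized counts plus 1, on a log axis, of the 8 carriers called without the block (left) and of the 8 that limma called only with it (right), with 1 point per library, shape for the number and a bar at each group mean (n = 3). In the left panel the Dox- and Dox+ points do not overlap for any of the 8 genes.

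Among carriers that move acid and base, the sodium bicarbonate cotransporter gene SLC4A4 (ENSBTAG00000002348) was expressed at 62.5, 16.3 and 52.6 normalized counts without doxycycline and at 706, 181 and 456 with it. Every Dox+ library exceeded every Dox- library, and library 2 was the lowest of its group on both sides. The gene rose 10.0-fold (log2 fold change 3.32, SE 0.63, limma adjusted p = 0.024). Within the same-numbered pairs the ratio was 11.3, 11.1 and 8.67. With Dox- 2, Dox- 3, Dox+ 1 or Dox+ 3 left out, the limma adjusted p became 0.058, 0.059, 0.10 and 0.15.

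The endosomal sodium-proton exchanger gene SLC9A9 (ENSBTAG00000031178) had 286, 416 and 275 normalized counts without doxycycline and 1789, 1363 and 1751 with it. It rose 5.07-fold (log2 fold change 2.34, SE 0.24, limma adjusted p = 0.0010). Of the 8 it alone stayed called whichever library was dropped from the fit without the block. With the block, all of the 8 but SLC38A6 stayed called whichever pair was dropped, in fits with a single residual degree of freedom. RefSeq places a tRNA gene within the span of SLC9A9, and the sources used here do not give the strand setting of the counting. Of the 4 bicarbonate carriers and 7 sodium-proton exchangers with a mean of at least 10, 1 each rose and 0 fell. The other 9 had limma adjusted p of 0.83 or more. At an unadjusted p under 0.05, 1 of each class passed, as in edgeR and in DESeq2.

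Among sugar carriers the change was in a gene of low level. SLC2A4 (ENSBTAG00000009190) encodes GLUT4, the insulin-responsive glucose transporter of muscle and fat. It had 7.36, 20.7 and 6.73 normalized counts without doxycycline and 77.8, 165 and 165 with it, without overlap. It rose 11.6-fold (log2 fold change 3.53, SE 0.57, limma adjusted p = 0.011), with ratios of 10.6, 7.97 and 24.5 in the pairs. Without Dox+ 3 the limma adjusted p was 0.091. Adipocyte markers summed to 147 to 315 in Dox- and 303 to 460 in Dox+ libraries. Of them ADIPOQ was at 83.4, 175 and 41.0 without doxycycline and 242, 358 and 284 with it (limma adjusted p = 0.14), PLIN1 and FABP4 were no higher on average and LEP was at 0. The part of these markers in the level of SLC2A4 was not tested.

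The glucose transporters best known from chondrocytes did not pass. SLC2A1, which encodes GLUT1, had 10952, 15877 and 10178 normalized counts without doxycycline and 14051, 13113 and 9946 with it. The 2 groups covered the same range, and the difference was 0.02 on the log2 scale with a 95% interval of -0.50 to 0.54. SLC2A3, which encodes GLUT3, had the largest SD within groups (1.57 on the log2 scale) of the carriers with a mean over 100 normalized counts. It had 32248, 12428 and 7761 without doxycycline and 86669, 5853 and 30242 with it. Its pair ratios were 2.69, 0.471 and 3.90, so 1 pair went against the others, and the interval of its log2 difference ran from -1.24 to 2.77. Of 12 sugar carriers with a mean of at least 10, 1 rose, 0 fell and 11 did not pass, with a median log2 fold change of -0.12. At an unadjusted p under 0.05, 1 of the 12 passed, and edgeR and DESeq2 each called 1.

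Lactate and other monocarboxylates leave cells through SLC16 carriers. SLC16A3 (ENSBTAG00000017461), the lactate exporter MCT4 of glycolytic cells, had 7646, 7969 and 12586 normalized counts without doxycycline and 6221, 5080 and 4504 with it. The groups did not overlap, and the level was 1.75-fold lower in the fit, with a log2 difference of -0.81 (interval -1.34 to -0.28). Limma called it neither way (limma adjusted p = 0.16, and 0.073 with the block). DESeq2 did call it (adjusted p = 0.043). In the authors' deposited table its log2 fold change was -0.69 with an adjusted p of 0.021. SLC16A7 (ENSBTAG00000021287), the high-affinity carrier MCT2, had 292, 185 and 375 without doxycycline and 484, 393 and 726 with it. It was higher by 1.65, 2.12 and 1.93 times in the pairs, and limma called it only with the block (limma adjusted p = 0.33, and 0.037 with the block). SLC16A1, which encodes MCT1, was 5916 ± 1025 and 4382 ± 1279 (n = 3, limma adjusted p = 0.63). None of the 8 SLC16 genes was called by limma or edgeR without the block, 2 had an unadjusted p under 0.05 and DESeq2 called 1.

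**Figure D3:**
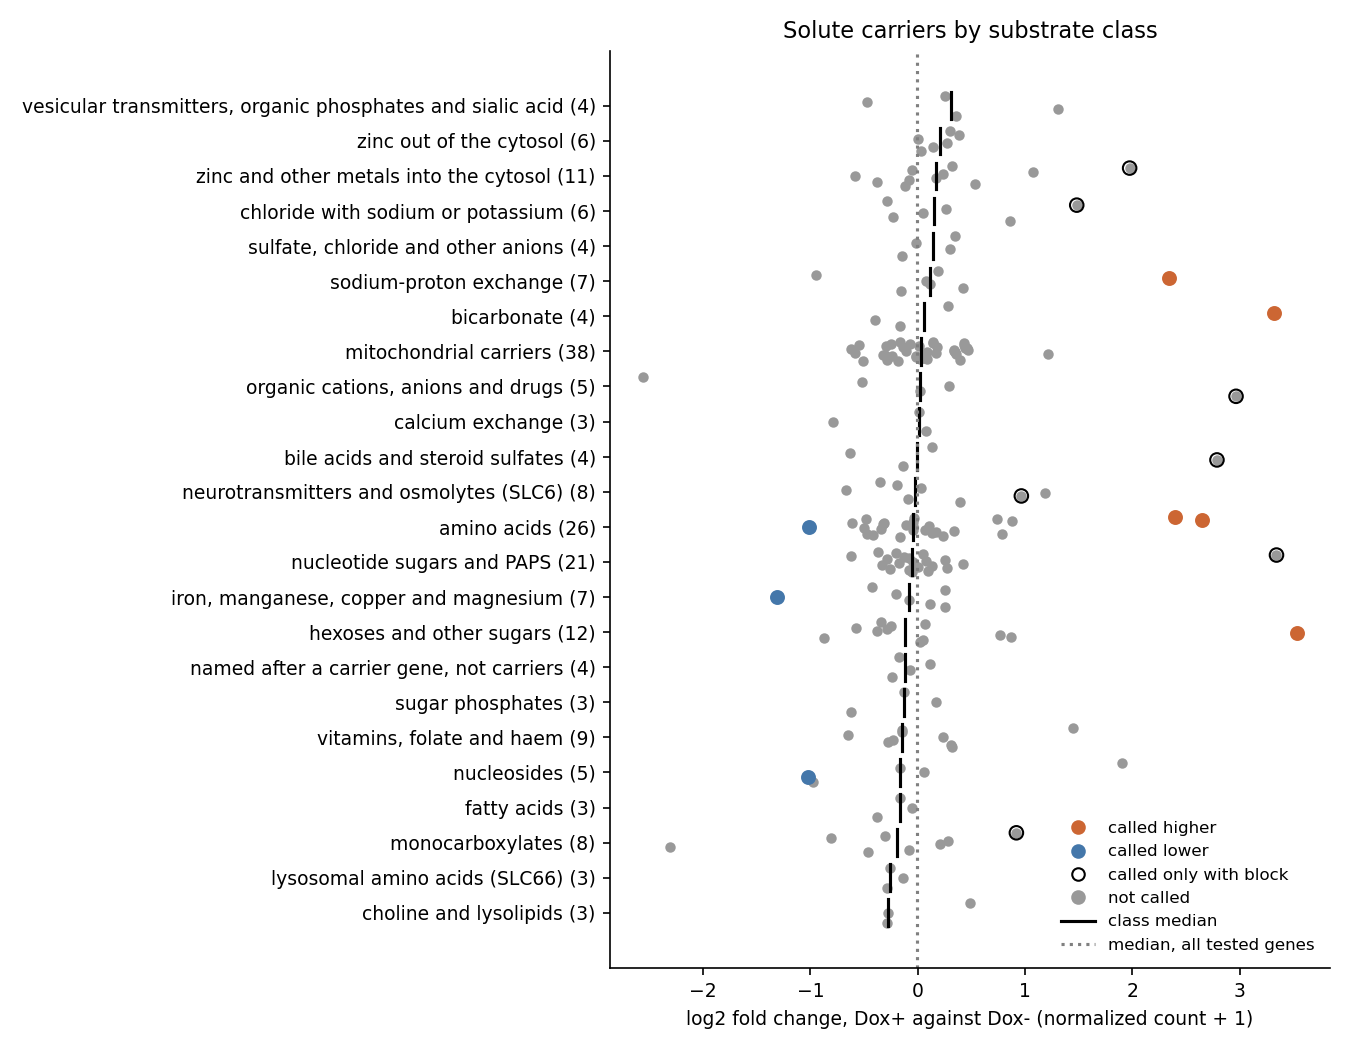
Log2 fold change between Dox+ and Dox- cells (x axis) of the 24 classes with at least 3 tested genes, 1 point per gene, with the number of genes in parentheses, a bar at each class median and a dotted line at the median of all genes tested. The classes are by substrate, except the class of 4 genes named after a carrier gene that are not carriers. Class medians lie between -0.27 and 0.31, and the 8 called genes belong to 6 of the classes.

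Amino acid carriers, 26 of the 211 genes, held 3 of the 8 calls, in both directions. SLC7A2 (ENSBTAG00000010085), a carrier of arginine, lysine and ornithine, had 168, 56.2 and 77.0 normalized counts without doxycycline and 767, 323 and 753 with it. It rose 6.29-fold (log2 fold change 2.65, SE 0.48, limma adjusted p = 0.021). Within the pairs the ratio was 4.56, 5.74 and 9.78. Leaving out Dox- 2, Dox- 3, Dox+ 1 or Dox+ 3 gave a limma adjusted p of 0.071, 0.085, 0.095 and 0.14.

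SLC7A8 (ENSBTAG00000007415) encodes LAT2, a light chain that carries neutral amino acids when joined to the heavy chain SLC3A2. It had 117, 73.9 and 147 normalized counts without doxycycline and 550, 469 and 730 with it, without overlap. It rose 5.25-fold (log2 fold change 2.39, SE 0.33, limma adjusted p = 0.0056), with an adjusted p of 0.054 without Dox+ 3. Its partner SLC3A2 had 5650, 8489 and 5785 without doxycycline and 4314, 10240 and 5007 with it, which overlap (limma adjusted p = 0.96). The other common light chain, SLC7A5 or LAT1, had 1545, 3168 and 2245 and 728, 3283 and 1702, and it did not pass either (limma adjusted p = 0.86). RefSeq lists unnamed genes that overlap SLC7A2 and SLC7A8, and their reads cannot be told apart without the strand setting.

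SLC38A6 (ENSBTAG00000007931), a member of the family of sodium-coupled neutral amino acid carriers, fell 2.02-fold. Its level was 1011, 1290 and 1347 normalized counts without doxycycline and 535, 692 and 577 with it, and in each pair it was lower, by ratios of 0.529, 0.537 and 0.428. The call (limma adjusted p = 0.042) was lost with any library but Dox- 1 left out. The limma adjusted p was then 0.17 and 0.13 for Dox- 2 and 3, and 0.18, 0.054 and 0.20 for Dox+ 1, 2 and 3. With the block it was 0.011, or 0.054 when pair 1 was left out.

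The remaining amino acid carriers did not pass. The glutamine carrier SLC1A5 had 14667, 21229 and 17655 normalized counts without doxycycline and 10646, 15336 and 12541 with it. It was lower by nearly the same ratio in each pair, 0.726, 0.722 and 0.710, but the groups overlapped and neither fit called it (limma adjusted p = 0.49, and 0.16 with the block). SLC38A2, a carrier induced by amino acid shortage, was 19388 ± 4903 and 20043 ± 3079 (n = 3, interval of the log2 difference -0.47 to 0.61). The cystine carrier SLC7A11 was low, at 68.7, 22.2 and 11.0 without doxycycline and 72.8, 26.5 and 58.1 with it. SLC7A6, another partner of SLC3A2, was 385 ± 76.5 and 640 ± 98.5 without overlap (n = 3, limma adjusted p = 0.25). SLC43A2, a carrier of large neutral amino acids, was 265 ± 85.8 and 168 ± 15.9 without overlap (n = 3, limma adjusted p = 0.58). Of 26 amino acid carriers with a mean of at least 10, 2 rose, 1 fell and 23 did not pass. Among all genes tested, 2.52% rose and 0.357% fell. The median log2 fold change of the 26 was -0.04. At an unadjusted p under 0.05, 4 of the 26 passed, beside 10.6% of all genes tested. SLC6A17 (ENSBTAG00000001981), a vesicular neutral amino acid carrier best known from neurons, was classed with the SLC6 family and is not among the 26. It had 649, 728 and 920 without doxycycline and 1464, 1246 and 1777 with it. The groups did not overlap, and limma called it with the block but not without it (limma adjusted p = 0.066, and 0.012 with the block). DESeq2 called it without the block (adjusted p = 0.0048). Of the 8 SLC6 genes with a mean of at least 10, limma and edgeR called 0 without the block. At an unadjusted p under 0.05, 1 of the 8 passed, and DESeq2 called 1.

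SLC29A1 (ENSBTAG00000015131), which encodes the nucleoside transporter ENT1 that clears adenosine, was among the 5 solute carriers with the highest mean normalized count, a measure that is not corrected for gene length. It had 31051, 33064 and 36671 without doxycycline and 18236, 15941 and 15313 with it, and fell 2.04-fold (log2 fold change -1.03, SE 0.18, limma adjusted p = 0.016). Libraries within a group lay close together, and the pair ratios were 0.587, 0.482 and 0.418. The call was lost when Dox- 2, Dox- 3, Dox+ 1 or Dox+ 3 was left out, at a limma adjusted p of 0.060, 0.055, 0.051 and 0.10. Of the other 4 nucleoside carriers, SLC29A4 was the highest by fold, at 3.68, 4.44 and 3.67 without doxycycline and 8.46, 29.1 and 20.9 with it (limma adjusted p = 0.32). Its Dox- values rest on 15 reads in all 3 libraries together, and it reached the mean of 10 only through the Dox+ group.

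Iron leaves cells through ferroportin, the product of SLC40A1 (ENSBTAG00000010498). Its level was 2542, 2600 and 1794 normalized counts without doxycycline and 811, 1119 and 858 with it, so the highest Dox+ library was below the lowest Dox- library. It fell 2.48-fold (log2 fold change -1.31, SE 0.22, limma adjusted p = 0.016). The adjusted p became 0.074, 0.073 and 0.10 with Dox- 2, Dox+ 1 or Dox+ 3 left out. The summed level of erythroid markers was 61116 to 107970 in Dox- and 21380 to 46180 in Dox+ libraries, nearly all of it HBA (limma adjusted p = 0.20), while ALAS2 had no reads in any library. Their part in the result was not tested. The iron importer SLC11A2 and the copper importer SLC31A1 did not pass, with log2 differences of 0.25 and 0.11. Of the 7 carriers of iron, manganese, copper and magnesium, 0 rose, 1 fell and 6 did not pass. At an unadjusted p under 0.05, 1 of the 7 passed, as in edgeR and in DESeq2.

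Zinc enters the cytosol through SLC39 carriers. SLC39A8 (ENSBTAG00000005668), or ZIP8, a zinc and manganese importer that has been studied in osteoarthritic mouse cartilage, had 94.4, 13.3 and 46.5 normalized counts without doxycycline and 210, 82.1 and 223 with it. Dox+ 2 lay below Dox- 1, but within the pairs the gene was higher by 2.22, 6.17 and 4.80 times. In limma it passed only with the block (limma adjusted p = 0.29, and 0.0098 with the block). In the authors' deposited table its log2 fold change was 1.75 with an adjusted p of 2.2e-04. SLC39A14, the related importer ZIP14, had 7773 ± 2534 and 8418 ± 449 (n = 3, interval of the log2 difference -0.38 to 0.71). SLC39A3 (420 ± 103 and 276 ± 28.6, n = 3, limma adjusted p = 0.49) and SLC39A11 (832 ± 151 and 640 ± 121, n = 3, limma adjusted p = 0.72) were lower without overlap and did not pass. SLC39A6, named after its values were seen, had 456, 182 and 165 without doxycycline and 562, 369 and 616 with it, with overlap and with pair ratios of 1.23, 2.03 and 3.73. Limma called it in neither fit of all libraries (limma adjusted p = 0.36, and 0.078 with the block) but called it without Dox- 1, and in the authors' deposited table its log2 fold change was 0.89 with an adjusted p of 0.018. With all libraries and without the block none of the 11 SLC39 genes passed by limma, edgeR or DESeq2, and 2 had an unadjusted p under 0.05. The 6 SLC30 carriers, which move zinc out of the cytosol, had log2 fold changes between 0.0022 and 0.39. None of the 6 passed by limma, edgeR or DESeq2, and 0 had an unadjusted p under 0.05.

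The carriers that feed proteoglycan sulfation did not pass. SLC26A2, the sulfate importer whose loss causes human diastrophic dysplasia, had 391, 235 and 74.0 normalized counts without doxycycline and 382, 132 and 256 with it. Its spread within each group was wider than the difference between the groups, with a 95% interval of -1.09 to 1.70 for the log2 difference. SLC35B2, which brings activated sulfate (PAPS) into the Golgi, was 2850 ± 576 and 3096 ± 335 (n = 3, interval -0.32 to 0.58). SLC35D1, a carrier of UDP-sugars that human and mouse cartilage needs for chondroitin sulfate, was 98.2 ± 39.9 and 99.9 ± 25.4 (n = 3, interval -0.85 to 1.00). These intervals leave room for changes in either direction.

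SLC13A4 (ENSBTAG00000003864), a sodium-coupled sulfate carrier, had 39.9, 164 and 128 normalized counts without doxycycline and 10.2, 91.4 and 37.2 with it. The groups overlapped, while the ratios within the pairs were 0.255, 0.556 and 0.291. In limma it passed only with the block (limma adjusted p = 0.63, and 0.047 with the block). It did not pass in edgeR with the block. In the authors' deposited table its log2 fold change was -1.11 with an adjusted p of 0.040. Of 21 SLC35 genes, SLC35F1, a family member without an agreed substrate, was the highest by fold, at 5.52, 0 and 2.45 without doxycycline and 60.9, 24.3 and 14.0 with it. In limma it passed with the block but not without it (limma adjusted p = 0.13, and 0.018 with the block). It reached the mean of 10 only through the Dox+ group. Without the block none of the 21 was called by limma or edgeR, 1 had an unadjusted p under 0.05 and DESeq2 called 1, SLC35F1 (adjusted p = 0.025).

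Phosphate enters chondrocytes through the sodium-dependent carriers PiT-1 and PiT-2, which are the products of SLC20A1 and SLC20A2. SLC20A1 had 42803, 33838 and 37003 normalized counts without doxycycline and 31814, 47151 and 31563 with it, with a log2 difference of -0.06 (interval -0.57 to 0.45). SLC20A2 had 296, 189 and 349 and 239, 289 and 312, with a log2 difference of 0.04 (interval -0.64 to 0.73). Neither passed.

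**Figure D4:**
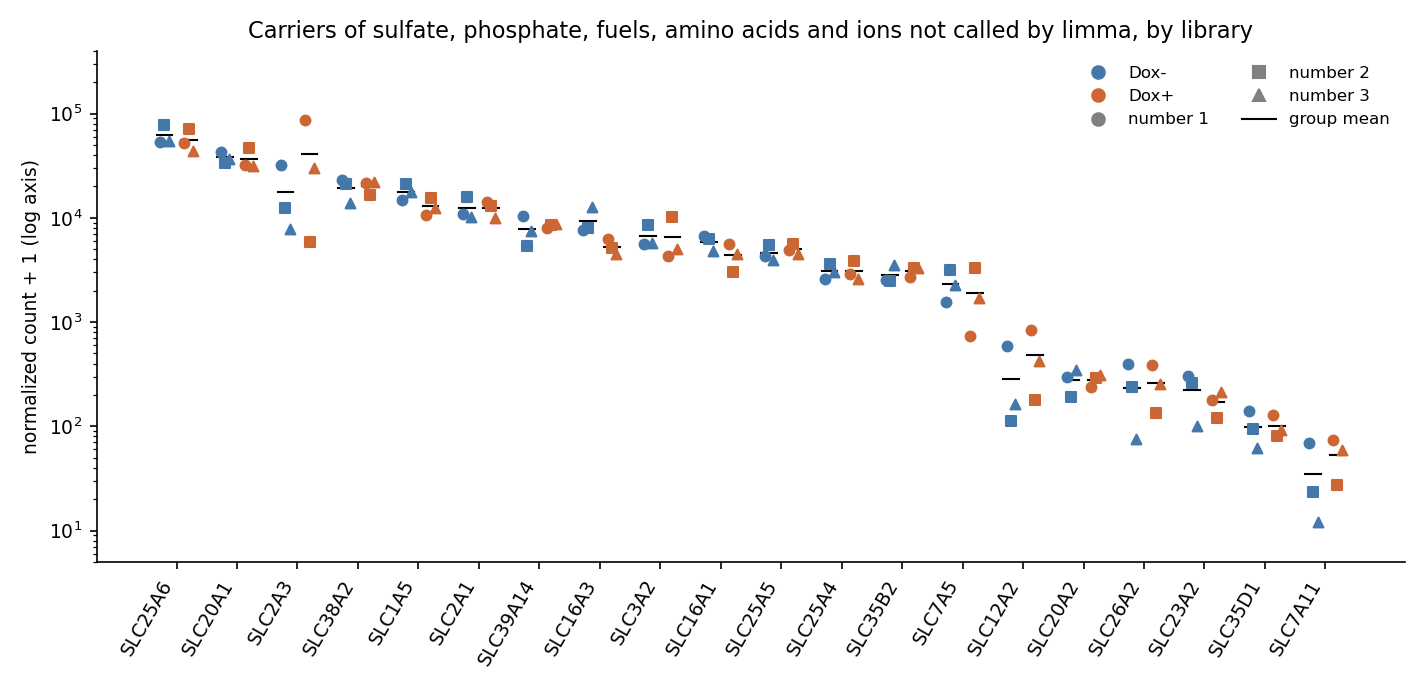
Normalized counts plus 1, on a log axis, of 20 carriers of sulfate, phosphate, fuels, amino acids and ions that limma called neither with nor without the block, 1 point per library, shape for the number and a bar at each group mean (n = 3). The groups overlap for all of them except SLC16A3, and the SD within groups exceeds 1 on the log2 scale for SLC2A3, SLC12A2, SLC7A11 and SLC26A2.

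Cation-chloride cotransporters of the SLC12 family set cell volume and chloride. SLC12A7 (ENSBTAG00000006775), the potassium-chloride cotransporter KCC4, had 42.3, 87.3 and 28.1 normalized counts without doxycycline and 124, 168 and 114 with it, without overlap. In limma it passed only with the block (limma adjusted p = 0.20, and 0.030 with the block). In the authors' deposited table its log2 fold change was 1.24 with an adjusted p of 0.011. SLC12A2, the sodium-potassium-chloride cotransporter NKCC1, had 586, 111 and 163 without doxycycline and 831, 180 and 423 with it. It was higher in each pair, by ratios of 1.42, 1.62 and 2.60, but was called by neither fit (limma adjusted p = 0.82, and 0.099 with the block). In the authors' deposited table its log2 fold change was 0.71 with an adjusted p of 0.046. SLC12A4 and SLC12A9 were lower without overlap, by 1.18-fold and 1.22-fold, and did not pass. None of the 6 SLC12 genes was called by limma, edgeR or DESeq2 without the block, and 1 had an unadjusted p under 0.05.

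The largest class, the mitochondrial carriers of the SLC25 family, held no call. Of 47 listed genes, 38 had a mean of at least 10, with log2 fold changes from -0.63 to 1.21 and a median of 0.03. None of the 38 was called by limma or edgeR, with or without the block, 2 had an unadjusted p under 0.05 and DESeq2 called 1. The highest was SLC25A25, an ATP-magnesium phosphate carrier, at 118, 85.8 and 115 normalized counts without doxycycline and 152, 407 and 237 with it (limma adjusted p = 0.23). It is the gene that DESeq2 called (adjusted p = 0.038), and in the authors' deposited table its log2 fold change was 0.96 with an adjusted p of 0.031. SLC25A26, the carrier of the methyl donor S-adenosylmethionine, was 770 ± 59.1 and 523 ± 120 (n = 3, limma adjusted p = 0.41), and the aspartate-glutamate carrier SLC25A12 was 582 ± 65.7 and 771 ± 126 (n = 3, limma adjusted p = 0.65), both without overlap. The adenine nucleotide translocases SLC25A4, SLC25A5 and SLC25A6, which exchange ADP for ATP, had log2 differences of 0.02, 0.14 and -0.17, and the division of reads between such close paralogs is uncertain.

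Among carriers of organic ions and bile acid relatives, limma without the block called none, 3 had an unadjusted p under 0.05, edgeR called 0 and DESeq2 called 1, SLC22A15. SLC22A15 (ENSBTAG00000000664), a carrier of organic cations and zwitterions, had 13.5, 14.8 and 3.06 normalized counts without doxycycline and 112, 74.1 and 51.2 with it, without overlap, and was 7.81-fold higher (limma adjusted p = 0.052, and 0.0038 with the block). Other fits without the block called it, at an adjusted p of 9.2e-04 in DESeq2, 0.034 in limma with a pseudocount of 5 and 0.044 in limma without Dox- 1. SLC10A4, a bile acid family member found in synaptic vesicles, had 0, 2.96 and 12.8 without doxycycline and 8.46, 27.8 and 65.1 with it, with overlap (limma adjusted p = 0.38, and 0.022 with the block). It too reached the mean of 10 only through the Dox+ group. SLC47A2, a proton-coupled exporter of organic cations, had 16.6, 17.7 and 20.2 without doxycycline and 0, 9.27 and 2.33 with it, without overlap. Neither fit called it (limma adjusted p = 0.31, and 0.10 with the block). SLC47A2 reached the mean of 10 only through the Dox- group, and 1 read in Dox+ 3 is worth 2.33 normalized counts.

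**Figure D5:**
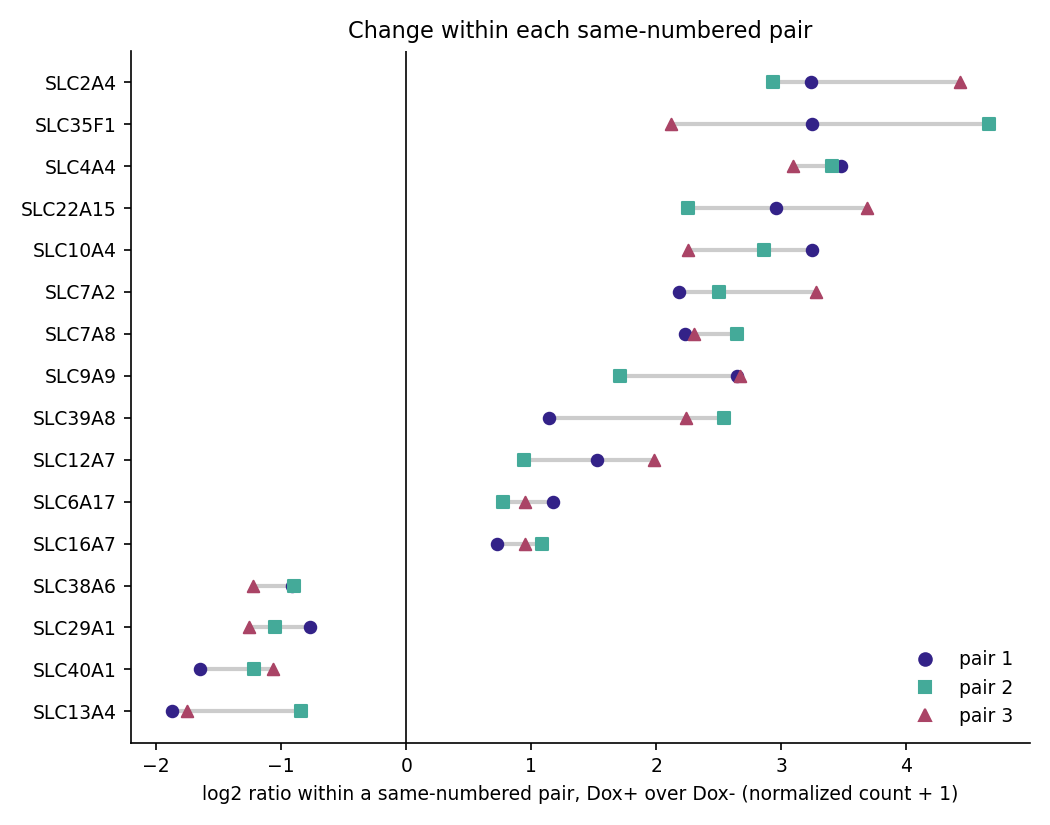
Log2 ratio of Dox+ over Dox- normalized counts (plus 1) within each same-numbered pair, on the x axis, for the 16 carriers called with the block, 1 point per pair. All 3 points of a gene lie on the same side of 0, and those of SLC4A4 lie between 3.09 and 3.48.

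Vitamin, choline and remaining carriers held no call. The multivitamin carrier SLC5A6 was 239 ± 5.99 and 314 ± 46.2 (n = 3, limma adjusted p = 0.73), the choline carrier-like SLC44A2 was 8042 ± 241 and 6679 ± 778 (n = 3, limma adjusted p = 0.69) and SLC35F6 was 1117 ± 74.5 and 969 ± 27.5 (n = 3, limma adjusted p = 0.83), each without overlap. The vitamin C carrier SLC23A2, a cofactor supplier for collagen synthesis, was 222 ± 108 and 170 ± 48.3 (n = 3, limma adjusted p = 0.91), with overlap.

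The filter left out genes that only just missed it. The members nearest to the mean of 10 from above were SLC16A12, SLC24A1, SLC47A2, SLC9B1 and SLC29A4, with means of 10.2 to 11.7, and the genes nearest from below were SLC45A1, SLC16A10, SLC8A2, SLC25A53 and SLC38A11, with means of 9.46 down to 9.01. Of the 211, 5 had a Dox- mean below 10 and 3 a Dox+ mean below 10, so these 8 passed through 1 group alone. SLC38A11 had no reads in any Dox- library and 15.2, 13.2 and 25.6 normalized counts in the Dox+ libraries. Against 3 reads per Dox- library as the floor, that is at least 6.66-fold higher. It was not tested, because it missed the mean of 10.

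Other genes of membrane transport were read from lists ordered by function. Beside 2.52% higher and 0.357% lower among all genes tested, 1 of 35 tested ion pump genes rose and 0 fell. It was ATP1B1, the beta subunit of the sodium pump whose gradient drives sodium-coupled carriers, at 1077 ± 306 and 7617 ± 1841 normalized counts (n = 3, 7.10-fold, limma adjusted p = 5.8e-04). Beside the same shares, 1 of 25 partners and regulators rose and 0 fell. It was SGK1, a kinase that regulates several ion carriers, at 1566 ± 165 and 6309 ± 714 (n = 3, 4.02-fold, limma adjusted p = 4.4e-04). Both calls held with each library left out. With the block limma called 1 of the 35 ion pump genes and 2 of the 25 partners and regulators higher, and 0 lower in either list. Without the block limma and edgeR called none of the 38 carriers with other names and none of the 22 ABC transporters. Of them 6 and 2 had an unadjusted p under 0.05, and DESeq2 called 2 and 1. Among all genes tested, 10.6% passed at an unadjusted limma p under 0.05, and with the block 4.86% were called higher and 1.65% lower. With the block SLCO2A1, a prostaglandin carrier, and SLCO4A1 were higher, ANKH, a pyrophosphate and citrate exporter, was lower, and TAP1, the peptide carrier of antigen presentation, was higher (limma adjusted p = 0.021, 0.028, 0.0083 and 0.015).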

How the data were processed

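Per the labels' protocols, RNA was extracted with Trizol and libraries were made with KAPA mRNA HyperPrep kits. The deposited table holds a signal per gene, which the authors call normalized counts in the file header. Per the submitters' processing notes, which assign no roles, the tools were DESeq2, Salmon, STAR 2.5.2b, FastQC 0.11.3 and MultiQC 1.2, with bosTau9 and ARS-UCD1.2 as genome builds. The authors' deposited comparison table lists for each gene a log2 fold change, its error, a p-value and the adjusted p-value.

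Every value above 0 was a whole multiple of 1 step per library (100% within 0.01 read), so reads were recovered and used for the alternatives in edgeR 4.0.16 and DESeq2 1.42.0. They called 304 and 542 genes higher and 39 and 159 lower. Groups were compared with limma 3.58.1 (in R 4.3.3, two-sided, trend on) on log2(normalized count + 1), with 1 term for group and 6 libraries. It covered the 13180 genes whose mean reached 10, and p-values were adjusted over them by Benjamini-Hochberg, with 0.05 as the threshold. Fold changes are on that scale and understate the change of low genes. Values are mean ± SD, and intervals are 95% intervals of the limma fit. The fits were tested on simulated data.

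The deviations of same-numbered libraries from their group means correlated by 0.65, 0.44 and 0.21 over all tested genes. Those of differently numbered libraries correlated by -0.59 to 0.18, so the numbers were taken to pair the libraries. Deviations from a group mean sum to 0 within the group, which lowers the latter values where the former are above 0. The latter are therefore no separate evidence of pairing. For number 3 the margin was small, as Dox- 3 correlated by 0.21 with Dox+ 3 and by 0.18 with Dox+ 2. The labels do not tie a number to a knee. No replicates agreed within sampling noise (chi-square per degree of freedom 57.9 to 435). Floors of 3 reads, worth 1.32 to 6.98 normalized counts, reflect counting error alone, because without molecular identifiers reads are not independent molecules. Symbols came from the authors' table, and RefSeq's gene table, built on ARS-UCD2.0 and not on the files' build, matched 208 of the 211 genes and was used only to find overlapping genes. No coordinates or sequences were used here. Substrate classes follow textbook family names, and not every member of a family has been assigned a substrate.

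The genes, lists and tests were chosen with earlier results of these data known. Named were a fixed set of carriers of cartilage interest whatever their result (1 of them is not reported here), every called gene, the 10 largest rises and falls among uncalled genes without overlap, the 5 highest means, the 5 genes on each side of the filter, the largest rise and fall called with the block in each substrate class, and the called genes of the other lists. SLC11A2, SLC31A1 and SLC39A6 were named after their values were seen. So were the genes called with the block among the carriers with other names and the ABC transporters.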

Additional observations from a re-analysis of the deposited data

How the results depend on the processing

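Among all genes tested, 332 were higher and 47 lower. The replicate block gave 640 and 218, edgeR with the block 591 and 190, and DESeq2 542 and 159, while limma without the trend called 23 lower. Leaving out 1 library gave 139 to 365 higher and 9 to 72 lower, and the block without 1 pair, chosen after seeing the data, 602, 917 and 934 higher and 188, 276 and 537 lower. Of the 211 genes named as solute carriers, 5 were higher and 3 lower. The block gave 12 higher and 4 lower, edgeR with the block 12 higher, DESeq2 9 higher, and limma without the trend 3 higher and 1 lower. With 1 library left out 1 to 7 were higher and 0 to 3 lower. At 0 lower, which followed without Dox- 2, Dox+ 1 or Dox+ 3, 6, 5 and 5 were lower at an unadjusted limma p under 0.05. The block without 1 pair gave 11, 13 and 18 higher and 3 to 15 lower, with a single residual degree of freedom. All 8 calls were kept with pseudocounts of 0.5 and 5, no filter, a mean of at least 50, TMM scaling, edgeR, DESeq2 and the block, and limma without the trend kept 4. It lost SLC4A4, SLC7A2, SLC38A6 and SLC40A1, at an adjusted p of 0.067, 0.06, 0.08 and 0.051, and the cause was not tested. The block fits without 1 pair kept all of the 8 calls but SLC38A6, which was lost without pair 1 (limma adjusted p = 0.054). None of the results recomputed here reversed under any of these alternatives. In limma the block changed the call of no other named gene of the 211 than the 8 given. EdgeR with the block also called SLC16A12 lower (adjusted p = 0.046), a gene that reached the mean of 10 only through the Dox- group. Depth limits genes near the filter, where 1 read in Dox+ 3 is worth 2.33 normalized counts.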

Other observations

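Several carriers varied more between libraries of a group than between the groups. The SD within groups, on the scale of log2(normalized count + 1), exceeded 1 for 17 of the 211 genes (8.06%, beside 6.40% of all genes tested). Its median was 0.39 over the 211 and 0.35 over all genes tested. SLC8A3, a sodium-calcium exchanger, was chosen after its values were seen. It had 1015, 129 and 598 normalized counts in Dox- and 464, 103 and 316 in Dox+ libraries, so library 2 was lowest in both groups, and it was lower in Dox+ in each pair (limma adjusted p = 0.85, and 0.12 with the block). SLC38A3, a glutamine carrier also chosen after its values were seen, had 678, 2337 and 1691 in Dox- and 540, 2509 and 970 in Dox+ libraries, with library 2 highest in both groups. Over the 211 genes, the deviations of same-numbered libraries from their group means correlated by 0.73, 0.38 and 0.28 for numbers 1, 2 and 3, a description across genes that share libraries.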
